A study of Mus musculus with 16 samples.

Results

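At 20 months of age, 171 of 20720 protein-coding genes on chromosomes 1 to 19 carried both H3K4me3 and H3K27me3 at their promoters in hematopoietic stem cells (HSCs). The genes were sorted by setting the pooled list of H3K4me3 peaks against the pooled list of H3K27me3 regions from the same aged cells. Promoters reached 1 kb upstream and 1 kb downstream of the starts of protein-coding transcripts in GENCODE M21 (build mm10), and 1 shared base pair between a listed peak and any promoter was enough to count the gene as marked. H3K4me3 alone was found at 4890 genes, H3K27me3 alone at 1528 genes, and neither mark at 14131 genes.

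H3K4me3 is laid down by methyltransferases of the COMPASS family at promoters that are active or poised, most of which lie in CpG islands. H3K27me3 is written by Polycomb repressive complex 2 and H2AK119ub1 by Polycomb repressive complex 1, and both accompany the silencing of developmental regulators. Promoters with H3K4me3 and H3K27me3 together were first described in embryonic stem cells as bivalent, a state linked to genes that are silent but can be switched on during differentiation. In a population of cells, however, a pair of marks in the lists does not show that both lie on the same allele or in the same cell.

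The cells were HSCs from the bone marrow of female C57BL/6 mice, sorted as CD150+ CD48- CD34- Flt3- cells within the Lin- IL-7- Sca-1+ c-kit+ fraction, from 20-month-old animals, and from 10-week-old animals for comparison. No genetic change and no treatment was applied in either group. The ChIP-seq (sequencing of immunoprecipitated chromatin) comprised 2 libraries per mark and age, but the peaks came as 1 list per mark and age, so there was no replicate spread and no difference below was tested. The intervals given are 95% Wilson intervals for shares and order-statistic intervals for medians, and they cover counting error over genes or peaks only. On chromosomes 1 to 19 the aged lists held 6686 H3K4me3 peaks (2.05 Mb in all, median width 270 bp) and 15926 H3K27me3 regions (8.42 Mb, median width 385 bp). The enrichment was shallow. The summits of the H3K4me3 peaks stood at 13 to 89 reads with a median of 19, over a lowest background of 3.52 reads, and the median fold enrichment was 4.20 for H3K4me3 and 3.16 for H3K27me3. As a check of the label, 10 of 16 HSC marker genes carried H3K4me3 alone (62.5%, against 23.6% of all genes), 5 carried neither mark and 1, Erg, carried both. H3K4me3 alone was found, among others, at Kit, Procr, Tek, Esam, Hlf, Mecom, Meis1, Tal1 and Runx1, whereas Ly6a, Slamf1, Cd34, Gata2 and Lmo2 had neither mark. Of 16 marker genes of B, T, myeloid and erythroid cells, none carried H3K4me3 alone, 14 had neither mark (87.5%, against 68.2% of all genes), Pax5 carried H3K27me3 alone and Ebf1 carried both marks. Promoters of these 16 genes were poor in CpG, with a median ratio of observed to expected CpG of 0.262. Of all genes with a ratio from 0.2 to 0.4, 10.5% carried H3K4me3 alone and 81.1% neither mark, so these 16 genes say little about the label. The HSC marker genes were not matched for CpG either. H3K4me3 alone was more frequent at CpG-rich promoters, at 39.7% of all genes with a ratio from 0.6 to 0.8.

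Promoter sequences of the 3 marked classes are shown first, because the classes differed in how rich their promoters were in CpG. The genes Dysf (a membrane repair protein of muscle), Prrx1 (a homeobox factor of limb mesenchyme), Frzb (a secreted Wnt antagonist) and Nav2 (a protein of neurite outgrowth) had the most bases lying under an H3K4me3 peak and an H3K27me3 region at once among the 130 genes with both marks whose RefSeq windows were compared, with 230, 221, 203 and 179 of 280 bases respectively. Only 13 of these 130 genes had 1 or more bases of the window under both marks. The windows of Dysf, Prrx1, Frzb and Nav2 are therefore not typical of genes with both marks. Next come Cops3 and Xrn1, which carried H3K4me3 alone, and Pax6 and Zic4, which carried H3K27me3 alone over all 280 bases. Each sequence, from RefSeq (GRCm38.p6, the same coordinates as mm10), runs from 250 bases before the start site to 30 bases after it, with CpG in capitals. The windows were chr6:84008348-84008627 (plus strand) for Dysf, chr1:163313621-163313900 (minus) for Prrx1, chr2:80447367-80447646 (minus) for Frzb, chr7:48958823-48959102 (plus) for Nav2, chr11:59839738-59840017 (minus) for Cops3, chr9:95954510-95954789 (plus) for Xrn1, chr2:105682213-105682492 (plus) for Pax6 and chr9:91368722-91369001 (plus) for Zic4.
Dysf: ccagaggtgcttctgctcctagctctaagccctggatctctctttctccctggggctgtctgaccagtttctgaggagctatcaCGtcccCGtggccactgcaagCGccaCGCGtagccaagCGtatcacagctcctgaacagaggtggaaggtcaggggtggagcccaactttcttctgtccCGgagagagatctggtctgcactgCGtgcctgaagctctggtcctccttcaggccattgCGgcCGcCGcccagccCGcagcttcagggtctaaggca
Prrx1: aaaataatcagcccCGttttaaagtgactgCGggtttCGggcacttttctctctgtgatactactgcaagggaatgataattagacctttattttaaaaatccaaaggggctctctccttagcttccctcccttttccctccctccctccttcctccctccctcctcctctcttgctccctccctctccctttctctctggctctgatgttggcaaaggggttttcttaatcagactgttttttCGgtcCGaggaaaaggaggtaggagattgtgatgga
Frzb: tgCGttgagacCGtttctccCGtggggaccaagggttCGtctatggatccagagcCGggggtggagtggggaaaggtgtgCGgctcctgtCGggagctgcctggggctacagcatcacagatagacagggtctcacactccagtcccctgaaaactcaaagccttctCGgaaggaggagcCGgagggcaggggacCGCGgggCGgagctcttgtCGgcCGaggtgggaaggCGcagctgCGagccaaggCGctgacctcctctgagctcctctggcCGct
Nav2: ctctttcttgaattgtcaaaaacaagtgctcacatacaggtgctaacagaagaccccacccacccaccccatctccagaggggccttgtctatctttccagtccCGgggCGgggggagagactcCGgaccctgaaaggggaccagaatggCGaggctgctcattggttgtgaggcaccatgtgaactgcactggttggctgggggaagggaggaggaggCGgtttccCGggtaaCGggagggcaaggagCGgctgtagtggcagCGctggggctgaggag
Cops3: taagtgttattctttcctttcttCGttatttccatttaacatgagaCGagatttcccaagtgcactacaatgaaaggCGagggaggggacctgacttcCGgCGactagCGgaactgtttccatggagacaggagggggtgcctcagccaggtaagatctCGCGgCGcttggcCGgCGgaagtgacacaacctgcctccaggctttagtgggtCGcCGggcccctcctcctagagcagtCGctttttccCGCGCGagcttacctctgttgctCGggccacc
Xrn1: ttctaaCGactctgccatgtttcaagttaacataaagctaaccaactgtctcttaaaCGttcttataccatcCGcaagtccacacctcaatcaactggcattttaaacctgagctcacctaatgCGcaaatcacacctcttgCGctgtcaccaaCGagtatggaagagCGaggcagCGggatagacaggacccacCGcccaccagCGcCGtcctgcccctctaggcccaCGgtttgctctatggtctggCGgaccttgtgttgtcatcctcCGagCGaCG
Pax6: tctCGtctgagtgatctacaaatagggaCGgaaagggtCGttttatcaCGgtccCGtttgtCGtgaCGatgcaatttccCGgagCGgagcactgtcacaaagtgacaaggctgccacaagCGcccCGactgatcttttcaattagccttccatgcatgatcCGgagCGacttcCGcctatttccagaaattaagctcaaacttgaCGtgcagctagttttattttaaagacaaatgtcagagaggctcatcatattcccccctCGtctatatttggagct
Zic4: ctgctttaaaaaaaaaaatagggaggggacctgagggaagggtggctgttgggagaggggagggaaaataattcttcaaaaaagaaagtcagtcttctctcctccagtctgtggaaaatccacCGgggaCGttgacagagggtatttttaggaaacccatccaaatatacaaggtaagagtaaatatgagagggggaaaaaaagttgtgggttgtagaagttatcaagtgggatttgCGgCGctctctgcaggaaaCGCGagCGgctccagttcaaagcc
The windows under both marks held 12 CpG in Dysf, 5 in Prrx1, 18 in Frzb and 9 in Nav2. Those of Cops3 and Xrn1 held 18 and 16 CpG, and those of Pax6 and Zic4 held 16 and 7. The printed windows of Nav2, Pax6 and Zic4 belong to start sites inside these genes, each of which has several. H3K4me3 peaks covered 26 bases of the window in Cops3 and 120 in Xrn1, and the strongest peak of each gene lay mostly or wholly downstream of its window.

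The 2 marks were listed together at few promoters. H3K4me3 was listed at the promoters of 24.4% of all genes and H3K27me3 at 8.2%, and both were listed at 0.825% (95% interval 0.711 to 0.958%). The number depended on the threshold of the lists and on the promoter width, with 71 genes when every listed peak had to reach a −log10 q-value of 2, 104 with promoters of 500 bp on each side and 267 with promoters of 2 kb. All counts are of listed peaks, and a promoter without a listed peak may still carry the mark. Neither mark was listed, for example, at 38 of 72 cytosolic ribosomal protein genes. H3K4me3 alone made up 23.6%, H3K27me3 alone 7.37% and neither mark 68.2%. Of 5061 genes with H3K4me3, 3.38% (2.92 to 3.91%) also carried H3K27me3, compared with 9.76% (9.30 to 10.2%) of the 15659 genes without H3K4me3. Read the other way, 10.1% (8.72 to 11.6%) of the 1699 genes with H3K27me3 carried H3K4me3, compared with 25.7% (25.1 to 26.3%) of the genes without H3K27me3. The genes with both marks were spread over all 19 chromosomes, from 0.477% of the genes on chromosome 17 to 1.40% on chromosome 12.

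The lower share of H3K27me3 at H3K4me3 genes held within bins of similar CpG content, except in the bin poorest in CpG. The CpG ratio of a promoter divides its CpG dinucleotides by those that its C and G content would give. From a ratio of 0.4 to 0.6, 4.50% (3.61 to 5.59%) of the 1690 genes with H3K4me3 and 17.2% (15.9 to 18.5%) of the 3276 genes without it carried H3K27me3. From 0.6 to 0.8, the shares were 2.66% (2.06 to 3.43%) and 15.6% (14.4 to 16.9%). From 0.8 upwards, they were 1.15% (0.584 to 2.25%) and 9.69% (8.02 to 11.7%). The intervals overlapped in the bin from 0.2 to 0.4 (6.02%, 4.20 to 8.57%, and 8.76%, 7.89 to 9.72%). Below 0.2, where only 67 genes had H3K4me3, 2 of these also carried H3K27me3.

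**Figure D1:**
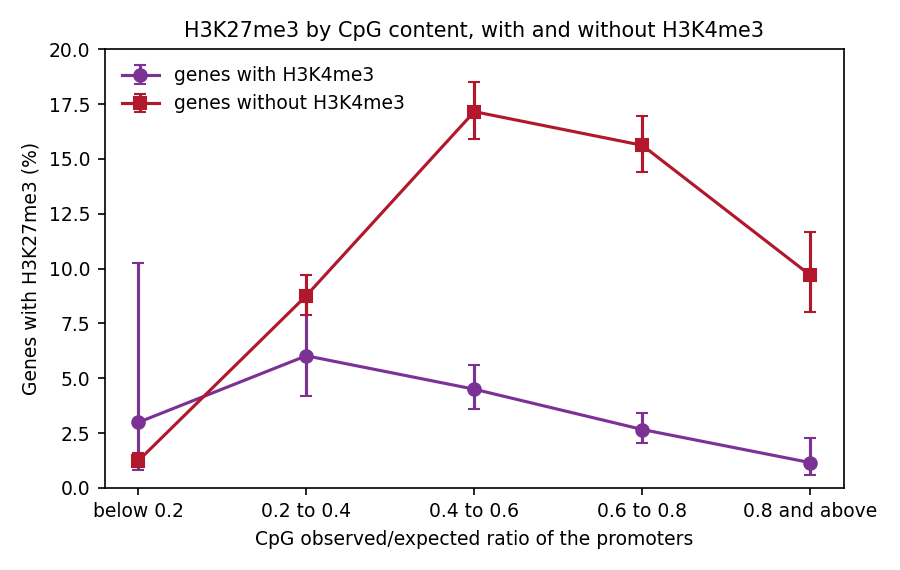
Share of genes with H3K27me3 (%, with 95% Wilson intervals) against the CpG observed/expected ratio of their promoters, for genes with H3K4me3 (circles) and without it (squares) in 20-month HSCs. Above a ratio of 0.4 the circles lie between 1.15 and 4.50% and the squares between 9.69 and 17.2%.

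In most of the 171 genes the marks sat close together. At 142 genes (83.0%, 76.7 to 87.9%) both marks touched the promoter of the same start site, and at 73 of these an H3K4me3 peak and an H3K27me3 region overlapped. Part of this closeness follows from the counting rule. Of the 171 genes, 55 (32.2%) had a single start site, where both marks could only touch the same promoter. In the other 69 of the 142 the peaks did not overlap. Over all 171 genes, the closest peaks overlapped or lay at most 500 bp apart at 105 genes, and at most 1000 bp apart at 132. The remaining 29 genes (17.0%, 12.1 to 23.3%) carried the marks only at different start sites, and at 28 of the 171 the closest peaks were more than 2 kb apart. The peaks were of ordinary strength. The best H3K4me3 peak of a gene with both marks had a median fold enrichment of 3.98 (3.98 to 4.20) and 18 reads at the summit, compared with 4.30 (4.20 to 4.38) and 20 reads at genes with H3K4me3 alone. The widest H3K27me3 region had a median width of 644 bp (542 to 730) at genes with both marks and 552 bp (520 to 574) at genes with H3K27me3 alone. The medians of its fold enrichment were 3.21 and 3.20.

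**Figure D2:**
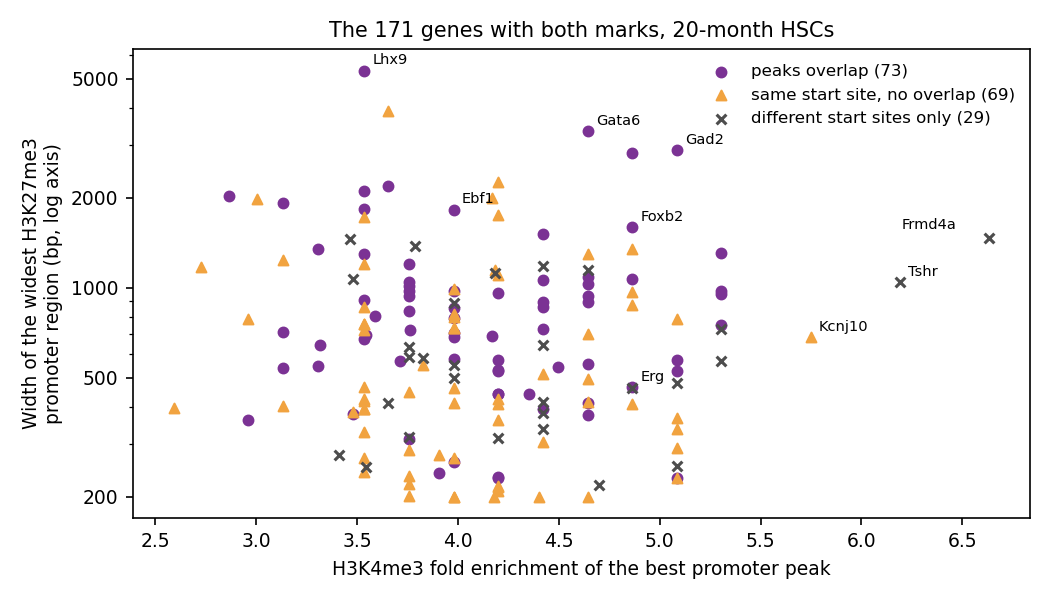
The 171 genes with both marks, each plotted by the fold enrichment of its best H3K4me3 promoter peak (linear axis) and the width of its widest H3K27me3 promoter region (bp, log axis). Circles are genes whose peaks overlap (73), triangles genes with both marks at the same start site without overlap (69), and crosses genes with the marks at different start sites only (29). Frmd4a and Tshr, at the far right, are crosses, and Lhx9 is the highest circle.

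The 10 genes with both marks and the strongest H3K4me3 peaks were Frmd4a, Tshr, Kcnj10, Fam107a, Ch25h, Dlx5, Hapln4, Arhgef7, Wnt5a and Etv1, and at 5 of them the marks lay at separate start sites. Frmd4a, a scaffold protein of cell polarity, had the highest peak, with 29 reads and a fold enrichment of 6.63 (chr2:4560055-4560356). Its H3K27me3 region (chr2:4153399-4154868, 1470 bp, fold enrichment 3.54) was at another start site, 405186 bp away. Tshr, the thyrotropin receptor, came second with 27 reads (6.19-fold), and its H3K27me3 region of 1046 bp lay 16975 bp from the peak. Thus the 2 highest peaks of the class did not share a promoter with H3K27me3. The same held for Arhgef7, a guanine nucleotide exchange factor, whose marks were 28231 bp apart, for the Wnt ligand gene Wnt5a at 4768 bp and for the ETS factor gene Etv1 at 2636 bp. Kcnj10, an inwardly rectifying potassium channel, carried both marks at its single start site (25 reads and 5.75-fold for H3K4me3, a region of 683 bp for H3K27me3), with 485 bp between them. Ch25h, an enzyme that makes an oxysterol, and Dlx5, a homeobox factor of bone and face, each had an H3K4me3 peak of 23 reads (5.31-fold) that overlapped an H3K27me3 region, of 972 bp in Ch25h and 950 bp in Dlx5. Fam107a, also at 23 reads, overlapped a region of 1307 bp in spite of a CpG ratio of 0.180. Hapln4, a link protein of the extracellular matrix, had 23 reads and a widest region of 748 bp.

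Ranked by the width of H3K27me3 instead, transcription factors of embryonic development came first. Lhx9, a LIM homeobox gene of the gonads, lay under a region of 5335 bp (chr1:138838034-138843368, fold enrichment 3.48), inside which was an H3K4me3 peak of 200 bp and 15 reads (3.54-fold, chr1:138841709-138841908). Dmrt2, a factor of somite patterning, had a region of 3897 bp and, 535 bp from the nearest region, a peak of 20 reads. Gata6, a regulator of endoderm and heart, had 3348 bp of H3K27me3 and a peak of 20 reads. Gad2, which makes the transmitter GABA, had 2894 bp and 22 reads. Others in the ranking were Flrt2 (2259 bp, a neuronal adhesion protein), Tfap2a (2183 bp, a factor of the neural crest), Osr1 (2100 bp, a factor of the early kidney), Otx2 (2023 bp, a factor of the forebrain) and Cxcl12 (1991 bp, the chemokine by which marrow stroma holds HSCs). All 10 genes of this ranking carried both marks at the same start site, as did 83.0% of the class, with H3K4me3 peaks of 15 to 22 reads. All 10 had H2AK119ub1 as well, near the 86.0% of the 43 genes with both marks and a region of 1000 bp or more. No gene was in both rankings. With 10 of 171 genes in each, few or no shared genes would be usual for unrelated values too. Whether the width of H3K27me3 and the height of H3K4me3 are related was not tested.

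Around the most upstream start site, the 2 marks differed in shape. At genes with both marks, H3K27me3 covered the most genes 700 bp downstream of the start site (33.9%) and fell to 21.6% at the start site itself, while H3K4me3 was highest 300 bp downstream (24.6%) and covered 15.2% at the start site. At genes with H3K4me3 alone, the mark was at its highest 200 bp downstream (37.1%) and covered 8.34% at the start site. H3K27me3 alone peaked at 33.5% of genes 1000 bp downstream and dipped to 17.5% at the start site. Listed H3K27me3 spread further than listed H3K4me3 and still covered 8.19% and 10.5% of the genes with both marks at 5 kb upstream and downstream. H3K4me3 was called as narrow peaks and H3K27me3 as broad regions, so their extents are not measured alike. The class rule also requires a listed peak within 1 kb of a start site.

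**Figure D3:**
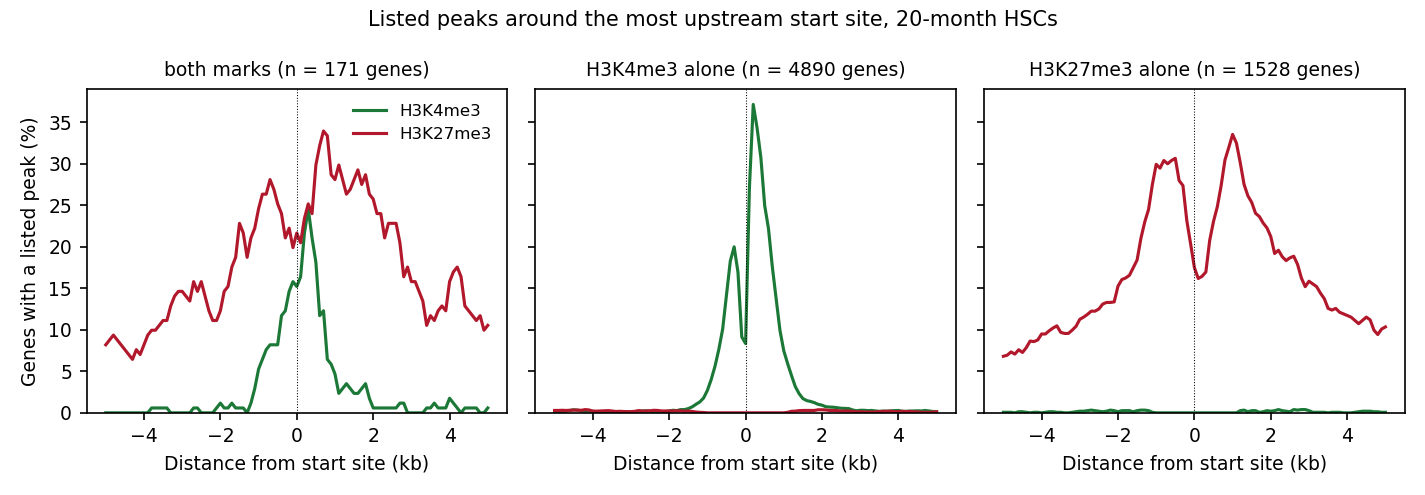
Percent of genes with a listed H3K4me3 peak (green) or H3K27me3 region (red) at each distance (kb, from 5 kb upstream to 5 kb downstream) from the most upstream start site, for genes with both marks, H3K4me3 alone and H3K27me3 alone. H3K4me3, called as narrow peaks, is highest just downstream of the start site. H3K27me3, called as broad regions, reaches further and dips at the start site in both classes that carry it.

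Counted by peaks, 167 of 6686 H3K4me3 peaks (2.50%, 2.15 to 2.90%) overlapped an H3K27me3 region, and 163 of 15926 H3K27me3 regions (1.02%, 0.879 to 1.19%) overlapped an H3K4me3 peak. With every list limited to a −log10 q-value of 2, the share of H3K4me3 peaks was 1.02%, and with lists of equal number 1.496%. When an H3K27me3 region had to be covered to at least 50%, 0.245% of the regions counted. In 77 of the 167 pairs the H3K4me3 peak lay wholly inside the region, in 6 the region lay inside the peak, and in 84 they met at an edge. The pairs shared a median of 217 bp and 37789 bp in all. Overlapping H3K27me3 regions had a median width of 687 bp, compared with 383 bp for the rest and 468 bp for the other regions at promoters. Overlap was found for 86 of 1255 H3K4me3 peaks away from promoters (6.85%, 5.58 to 8.39%) and for 81 of 5431 at promoters (1.49%, 1.20 to 1.85%). The 86 had summits in exons of protein-coding genes in 8 cases (9.30%, against 13.9% of the 1169 other H3K4me3 peaks away from promoters), in introns in 29 (33.7% against 43.0%) and outside such genes in 49 (57.0%, 46.4 to 66.9%, against 43.1%, 40.3 to 46.0%). The start of another annotated transcript, noncoding or outside the basic protein-coding set, lay within 1 kb of 35 (40.7%), near the 37.0% of the others. Their median CpG ratio was 0.543 (0.519 to 0.566), compared with 0.428 (0.416 to 0.447) for the 1169 others.

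The longest shared stretch, 1136 bp, lay 14089 bp from the nearest start site, that of Sox2, the pluripotency and neural factor (chr3:34664494-34665810, 28 reads and 6.41-fold for H3K4me3, within the noncoding gene Sox2ot). Sox2 itself thus counted among the genes with H3K27me3 alone. Foxb2, a forkhead factor of the nervous system, shared 614 bp at its promoter (chr19:16873873-16874543, 21 reads and 4.86-fold for H3K4me3, 1595 bp and 3.26-fold for H3K27me3). Next came 554 bp in a processed pseudogene whose nearest start site was that of Pdcd2, 540 bp in an intron of Rspo3, which encodes a secreted activator of Wnt signalling, and 532 bp in exons of the noncoding genes Rmst and Gm26700. An exon of Osr2, a factor of palate and limb, shared 461 bp, and a stretch 1854 bp from a start site of Hoxd12, outside annotated genes, shared 431 bp. One overlapping peak stood apart. It lay in the noncoding gene Gm26917 on chromosome 17 and had a background of 52.8 reads under a summit of 89 reads, so that its fold enrichment was 1.67. No other of the 167 had a background above 7 reads.

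The 6 genes with H3K4me3 alone and the strongest peaks were Cops3, Ahdc1, Tmem115, Cnot1, Xrn1 and Cdadc1. Cops3, a subunit of the COP9 signalosome, had the highest −log10 q-value at any promoter (12.5), with 33 reads and 7.52-fold enrichment (chr11:59839439-59839763). Ahdc1, a DNA-binding protein, and Tmem115, a protein of the Golgi apparatus, followed with 31 reads each (7.07-fold). Cnot1, a scaffold of the main mRNA deadenylase complex, and Xrn1, an exoribonuclease that degrades decapped mRNA, had 30 reads each (6.85-fold). Cdadc1, a protein with a cytidine deaminase domain, had 31 reads (6.67-fold). Ahdc1 and Tmem115 also carried H2AK119ub1, which was at 11.3% of genes with H3K4me3 alone, and the other 4 did not. The 6 genes with H3K27me3 alone and the widest regions all encode developmental transcription factors. Tbx15, a T-box factor of the skeleton, had 5977 bp (chr3:99254172-99260148, fold enrichment 3.72), followed by Onecut2 (5096 bp, liver and neurons), Pax3 (5084 bp, neural crest and muscle), Hoxc12 (5063 bp, posterior body axis), Pax6 (4665 bp, eye and brain) and Zic4 (4627 bp, cerebellum). All 6 had H2AK119ub1, as did 78.2% of genes with H3K27me3 alone and a region of 1000 bp or more.

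Gene families differed in how they fell into the classes. Of the lists examined, homeobox genes outside the Hox clusters had the largest share under H3K27me3, with 78 of 95 carrying it alone, 9 carrying both marks (among them Dlx5, Lhx9, Msx3, Nkx2-9, Otx1, Otx2, Pitx3 and Prrx1), 3 carrying H3K4me3 alone and 5 neither. The 39 Hox genes had 23 with H3K27me3 alone, 5 with H3K4me3 alone, among them Hoxa9, and none with both. All 9 measured Hoxc genes and all 9 measured Hoxd genes were among the 23. T-box, SOX and GATA genes had both marks at 6 of 39 (15.4%), against 0.825% of all genes, namely Eomes, Gata6, Sox6, Tbr1, Tbx1 and Tbx3, and 16 carried H3K27me3 alone. Both marks were at 2 of 41 forkhead genes (Foxb2 and Foxd1), 2 of 38 WNT and Frizzled genes (Wnt5a and Wnt16), 4 of 91 potassium channel genes (Kcnc2, Kcnj10, Kcnj5 and Kcnn2) and 2 of 42 collagen genes (Col14a1 and Col25a1). H3K27me3 alone was at 13, 15, 37 and 13 members of these 4 families. BMP, TGF-beta and GDF ligand genes (29) and clustered protocadherin genes (57) had no member with both marks, as most genes do. H3K27me3 alone was at 6 of the former (20.7%) and 5 of the latter (8.77%, near the 7.37% of all genes).

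Of 28 HSC transcription factor genes, 20 (71.4%) carried H3K4me3 alone, against 23.6% of all genes, among them Runx1, Meis1, Mecom, Hlf and Fli1. The list had a median CpG ratio of 0.676, and of all genes with a ratio from 0.6 to 0.8, 39.7% carried H3K4me3 alone. Gfi1, a repressor that limits HSC proliferation, carried H3K27me3 alone. Erg, an ETS factor that HSCs need for self-renewal, was the member with both marks, but its H3K4me3 peak (21 reads, 4.86-fold) and its H3K27me3 region (463 bp) were at different start sites 127195 bp apart. Lineage transcription factors were mixed. H3K4me3 alone was at 10 of 28 (35.7%, against 23.6% of all genes), such as Cebpa and Gata3. H3K27me3 alone was at 6 (21.4%, against 7.37%), namely Bcl11b, Ikzf3, Lef1, Pax5, Runx3 and Tbx21. The list had a median CpG ratio of 0.714, and all genes with a ratio from 0.6 to 0.8 had 39.7% and 9.26%. Both marks were at 2 lineage factors (7.14%, against 0.825% of all genes). These 2 were Ebf1, which commits cells to the B lineage (17 reads over 1826 bp of H3K27me3), and Eomes, a T-box factor of T and NK cells (22 reads over 575 bp), and in each the peaks overlapped at the promoter. Of 30 HSC surface and aging marker genes, 11 (36.7%) carried H3K4me3 alone and the other 19 (63.3%) neither mark, the latter close to the 68.2% of all genes. The list had a median CpG ratio of 0.377, and of all genes with a ratio from 0.2 to 0.4, 10.5% carried H3K4me3 alone and 81.1% neither. Among 29 Polycomb component genes, 15 (51.7%) carried H3K4me3 alone and 13 (44.8%) neither, against 23.6% and 68.2% of all genes. The list had a median CpG ratio of 0.688, and all genes with a ratio from 0.6 to 0.8 had 39.7% and 50.0%. Cbx8, a chromodomain subunit of Polycomb repressive complex 1, carried both marks (22 reads, a region of 231 bp overlapping the peak). Cdkn2a and Cdkn2b, cell cycle inhibitors that Polycomb is known to silence, carried H3K27me3 alone, while Cdkn1b and Cdkn2c carried H3K4me3 alone. The other 3 CDK inhibitor genes carried neither (42.9%, against 68.2% of all genes). The 15 H3K4 methyltransferase and H3K27 demethylase genes had 5 (33.3%) with H3K4me3 alone and 10 (66.7%) with neither, against 23.6% and 68.2% of all genes. Their median CpG ratio was 0.719, and all genes with a ratio from 0.6 to 0.8 had 39.7% and 50.0%.

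Ribosomal protein and proteasome genes had no H3K27me3, which was at 8.2% of all genes. H3K4me3 alone, at 23.6% of all genes, was at 34 of 72 cytosolic ribosomal protein genes (47.2%), 32 of 78 mitochondrial ribosomal protein genes (41.0%) and 23 of 47 proteasome genes (48.9%), and neither mark at the rest. The median CpG ratios of these 3 lists were 0.685, 0.597 and 0.618. Of all genes, 39.7% with a ratio from 0.6 to 0.8 and 32.5% with a ratio from 0.4 to 0.6 carried H3K4me3 alone, which is nearer to the shares of these lists. Zinc finger (Zfp) genes had 129 of 385 (33.5%) with H3K4me3 alone, 8 (2.08%) with H3K27me3 alone and none with both. Their median CpG ratio was 0.466. Of all genes with a ratio from 0.4 to 0.6, a near-equal 32.5% carried H3K4me3 alone, 11.3% H3K27me3 alone and 1.53% both. Clustered histone genes lay mostly outside both lists (61 of 67, 91.0%, against 68.2% of all genes), with Hist1h1b, a linker histone, as the member with both marks. Olfactory and vomeronasal receptor genes carried neither mark in 1399 of 1412 cases (99.1%), against 97.3% of all genes with a CpG ratio below 0.2. The median ratio of these receptor genes was 0.119. Of the 4 markers of cells outside the blood, Neurod1 and Myod1 carried H3K27me3 alone, and Alb and Col1a1 neither mark.

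**Figure D4:**
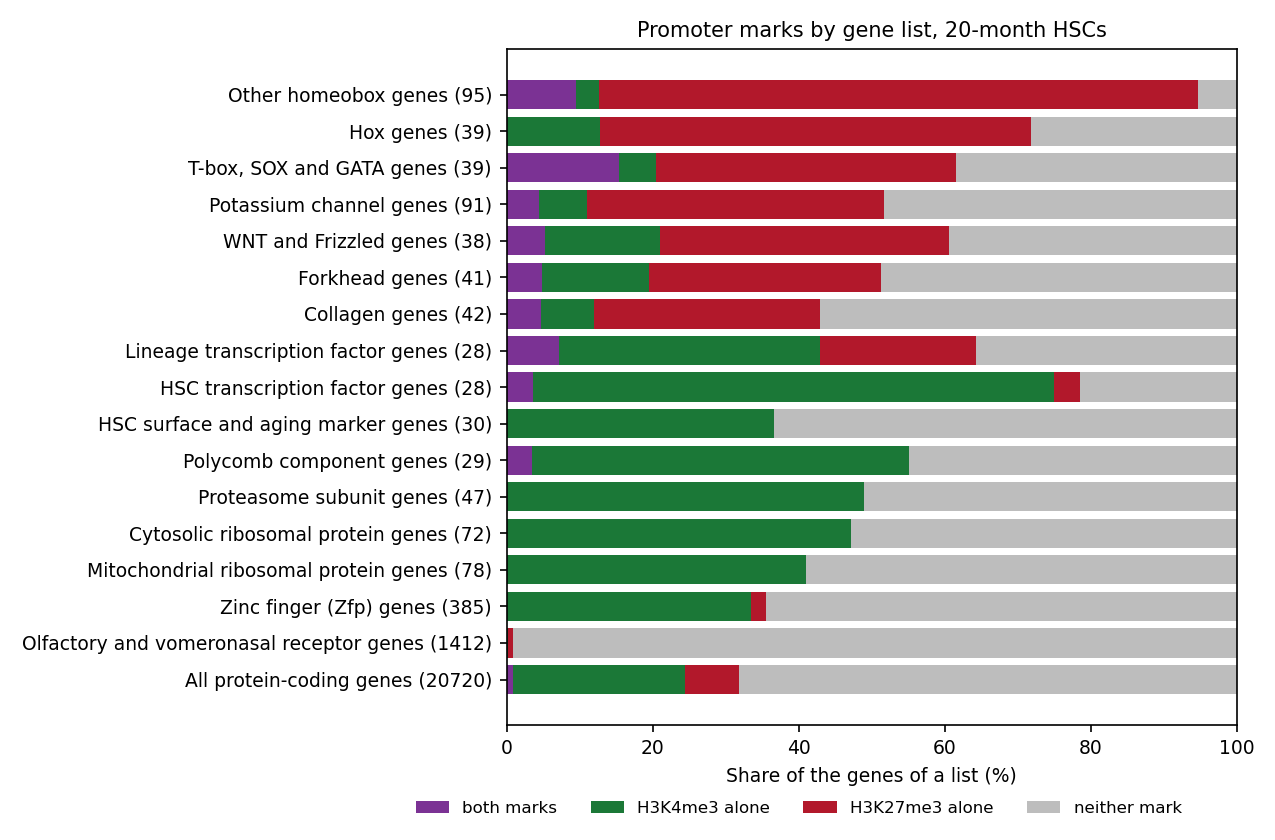
Share of the genes of each list (%, number of genes in brackets) that carried both marks, H3K4me3 alone, H3K27me3 alone or neither mark at 20 months. The homeobox lists and T-box, SOX and GATA genes show the largest red parts, HSC transcription factor genes the largest green part (20 of 28), and olfactory and vomeronasal receptor genes are almost wholly grey. The lowest bar gives all protein-coding genes.

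H2AK119ub1, which neither defined nor was used to choose the classes, was listed at the promoters of 14.4% of all genes and followed H3K27me3. It was at 134 of the 171 genes with both marks (78.4%, 71.6 to 83.9%), 61.1% (58.6 to 63.5%) of genes with H3K27me3 alone, 11.3% (10.5 to 12.3%) with H3K4me3 alone and 9.70% (9.22 to 10.2%) with neither. The higher share at genes with both marks than at H3K27me3 alone appeared at each width of H3K27me3. It was 68.9% (54.3 to 80.5%) against 49.4% (45.0 to 53.8%) for regions under 400 bp, 79.5% (69.6 to 86.8%) against 61.8% (58.3 to 65.3%) from 400 bp to under 1000 bp, and 86.0% (72.7 to 93.4%) against 78.2% (73.2 to 82.5%) from 1000 bp, where the intervals overlapped. Among genes with 1 start site it was 80.0% (67.6 to 88.4%) of 55 against 60.8% (57.2 to 64.3%) of 725. When every list was limited to peaks that reached a −log10 q-value of 2, the shares were 52.1% (40.7 to 63.3%) of 71 genes and 43.6% (39.8 to 47.5%) of 628, with overlapping intervals. Within the class, H2AK119ub1 was at 65 of the 73 genes with overlapping peaks (89.0%, 79.8 to 94.3%), and at 16 of the 29 with marks at different start sites (55.2%, 37.5 to 71.6%). By peak, H2AK119ub1 lay over 77.9% (70.9 to 83.6%) of the 163 H3K27me3 regions that overlapped H3K4me3, at or away from promoters. It lay over 26.2% of the 15763 other H3K27me3 regions, and over 44.5% (42.6 to 46.5%) of the 2391 of these at promoters. These shares by peak were not matched for width, and the 163 regions were wider (median 687 bp, against 383 and 468 bp). Among H3K4me3 peaks, H2AK119ub1 lay over 65.3% of the 167 that overlapped H3K27me3 and over 4.40% of the 6519 others.

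The same genes were then looked up in the lists from 10-week HSCs, which were longer, with H3K4me3 at 35.4% of genes, H3K27me3 at 15.8% and both at 3.06%. Of the 171 genes, 105 (61.4%, 53.9 to 68.4%) had both marks at 10 weeks as well, 59 had H3K27me3 alone, 5 H3K4me3 alone and 2 neither. H3K27me3 was thus listed at 10 weeks for 95.9% (91.8 to 98.0%) and H3K4me3 for 64.3% (56.9 to 71.1%) of them. The 59 genes include Kcnj10, Fam107a, Ch25h, Dlx5, Otx2, Otx1, Nkx2-9 and Prrx1, whereas Hist1h1b and Etv1 were among the 5 with H3K4me3 alone. At genes with H3K4me3 alone at 20 months, that mark was listed at 10 weeks for 75.8% (74.5 to 76.9%), and at genes with H3K27me3 alone, H3K27me3 was listed for 96.5% (95.4 to 97.3%). Age, pooled libraries and the lengths of the lists cannot be told apart here.

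**Figure D5:**
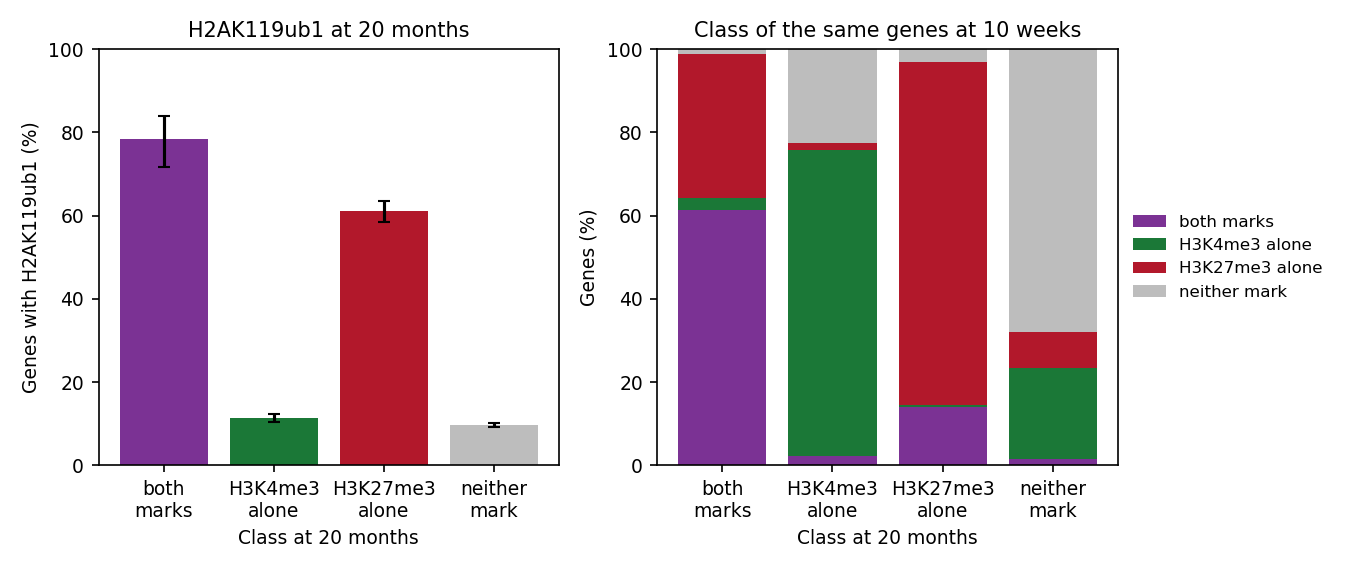
Left, share of genes with H2AK119ub1 at 20 months (%, with 95% Wilson intervals) in the 4 classes, which is 78.4% at genes with both marks and 11.3% at genes with H3K4me3 alone. Right, how the genes of each 20-month class (columns) were marked at 10 weeks (%, colours), with 61.4% of the genes with both marks carrying both at 10 weeks.

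In CpG content and in the ETS core motif, the promoters of genes with both marks were closer to those with H3K27me3 alone than to those with H3K4me3 alone. The median CpG ratio was 0.568 (0.538 to 0.587) with both marks, 0.542 (0.531 to 0.558) with H3K27me3 alone, 0.631 (0.625 to 0.636) with H3K4me3 alone and 0.335 (0.327 to 0.344) with neither. In the 300 bases from 250 before to 50 after the most upstream start site, the ETS core CCGGAA on either strand was present at 10.5% (6.76 to 16.0%) of genes with both marks, 9.16% (7.82 to 10.7%) with H3K27me3 alone, 31.3% (30.0 to 32.6%) with H3K4me3 alone and 18.4% of all genes. The GC box GGGCGG was present at 49.7% (42.3 to 57.1%), 54.6% (52.1 to 57.1%), 64.8% (63.4 to 66.1%) and 45.6%, in the same order. The TATA box core TATAAA was at 8.77% (5.39 to 14.0%), 9.36% (8.00 to 10.9%), 6.44% (5.79 to 7.16%) and 12.6%, and CCAAT at 38.0%, 35.4%, 38.7% and 38.4%. None of the 4 motifs contains another. Genes with both marks were also long and had many starts. Their median span was 58.8 kb (35.7 to 98.9), compared with 27.3 kb with H3K4me3 alone and 29.0 kb with H3K27me3 alone, and 44.4% (37.2 to 51.9%) had 3 or more start sites, against 21.7% of all genes. A gene with more start sites has more promoters at which a mark can be counted, and both marks were at 0.551% of genes with 1 start site and at 1.69% of genes with 3 or more.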

How the data were processed

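ChIP-seq reads were aligned by the authors to mm10 with Bowtie2, and the submitters' processing notes name MACS2 2.2.6. Peak names of the deposited lists carry a q threshold of 0.05 for H3K4me3 (narrow) and a threshold of 0.1 for the broad marks. A broad peak name holds only 1 library number where an H3K4me3 name holds 2, and whether both libraries entered the broad lists is therefore uncertain. The deposited files give, per peak, the fold enrichment as a ratio, the −log10 p-value and the −log10 q-value, averaged over the region in the broad lists. Depth is not part of a list. Summit reads and background for H3K4me3 were recovered from the authors' fold and −log10 p-values, since MACS gives the fold as (reads + 1) / (background + 1) and a Poisson p-value. They came out whole, within 0.01, for 100% of 6686 peaks.

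Overlaps of at least 1 bp were computed in Python 3.11.15 with numpy 2.4.6 and pandas 2.3.3, checked against bedtools 2.31.1 and tested on simulated data. Start sites came from the basic set of GENCODE M21 (39540 on chromosomes 1 to 19). Base composition was read with pysam 0.24.0 as the median over the promoters of a gene. Chromosomes X and Y were left out of the main counts. Sequences came from RefSeq windows off chromosome 18. They were chosen as the 4 genes with most bases under both marks, after their values were seen, and, for each single mark, the first 2 ranked genes whose window touched the mark. Named genes were, with both marks, the 10 with the highest H3K4me3 −log10 q-value and the 10 with the widest H3K27me3 region, the first 6 of each single mark by the same ranks, and list members with both marks, except for results that are not reported here. Other genes named from the lists, and the overlapping pairs, were chosen after their values were seen. The members and gene lists were chosen with earlier results of these data known. Plots were drawn with matplotlib 3.10.9. The young H2AK119ub1 list was not used here.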

Additional observations from a re-analysis of the deposited data

How the results depend on the processing

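Requiring a −log10 q-value of at least 2 in every list left 4433 H3K27me3 regions and moved most values. Both marks were then at 71 genes, H3K27me3 alone at 628, H2AK119ub1 at 52.1% of genes with both marks and both marks at 10 weeks at 69.0%, while 1.02% of H3K4me3 peaks and 1.47% of H3K27me3 regions overlapped. Promoters of 500 bp either side gave 104 genes with both marks, H2AK119ub1 at 63.5% and a median CpG ratio of 0.614. Promoters of 2 kb gave 267 genes and a ratio of 0.484. Each of these ratios was taken over promoters of the changed width, so they are not comparable with the 0.568 of the main width. With lists of equal number, 107 genes had both marks and 861 had H3K27me3 alone, and 1.496% of H3K4me3 peaks and 1.45% of H3K27me3 regions overlapped. Counting only peaks covered to at least 50% gave 1.90% and 0.245%. Joining peaks within 1 kb gave 2.95% and 1.49%. Including X and Y left 0.813% of H3K27me3 regions overlapping. Causes were not tested, beyond the smaller or larger number of peaks or bases that these settings leave. The other 37 of the 57 recomputed values stayed within 1.5 times the count or within the interval of the share or median, among them 195 genes with both marks from all protein-coding transcripts, a setting chosen after seeing the data, and 116 with 1 start site per gene. No paired analysis was possible because only 1 pooled list per mark and age was used, with no replicate numbers. Peaks of low depth could be missed, so a gene without a listed mark may carry it.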
